A study of Mus musculus with 3 samples.

Results

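The Runx family and its cofactors were described through 6 genes, chosen by name from the 27985 genes of the raw count table. They were the 3 Runx transcription factors *Runx1*, *Runx2* and *Runx3*, their shared binding partner *Cbfb*, and the ETO co-repressors *Runx1t1* and *Cbfa2t3*. The choice used no cutoff on a measured value, but it was made with earlier results of these data known. The counts came from single-cell RNA sequencing, by the 10X Genomics 3′ platform, of endothelial cells from the hearts of adult mice that carried a GFP transgene. Cells sorted as GFP+, CD31+ and VE-Cad+, and as negative for CD41, CD45, PDGFRA and PDGFRB, were taken fresh (0 h) or re-sorted as GFP+CD31+VE-Cad+PDGFRA- cells after 24, 48, 72 and 96 h in co-aggregates. The partner cells of every co-aggregate were *Mesp1*der PSCs, the DsRed+PDGFRA+PDGFRB- stromal cells of the aorta-gonad-mesonephros region of E11.5 embryos, in which a *Mesp1*-driven Cre had switched on a DsRed reporter in descendants of early mesoderm. All co-aggregates grew with an interleukin, SCF and Flt3L at 100 ng/ml each. The re-sort no longer excluded CD41+ or CD45+ cells, and there was no culture without PSCs among the cells used here. Cells of all times were mixed in each of 3 pools, and neither the time nor the pool of a cell could be read from the tables used here. The matrix was therefore read as 1 sample, no test between conditions was made, and every comparison below is between groups of cells.

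RUNX proteins bind DNA through the Runt domain, and the *Cbfb* product, CBFβ, does not touch DNA but strengthens that binding. *Runx1* is needed for blood stem and progenitor cells to arise from haemogenic endothelium, and later shapes myeloid, lymphoid and megakaryocyte development. *Runx2* is the master factor of bone-forming cells, and *Runx3* is best known in cytotoxic T cells and sensory neurons. The ETO proteins carry co-repressors to DNA-bound factors: *Cbfa2t3* (ETO2) works with the TAL1–GATA–LMO2 complex in blood progenitors, and *Runx1t1* (ETO) is known as the partner fused to RUNX1 in acute myeloid leukaemia.

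Of the 6 genes, 5 had a promoter window in the RefSeq table (build GRCm38.p6), with 8 windows between them, each reaching from 250 bases before to 50 bases after a start site. The table gave none for *Runx1t1*. The 3 windows at the distal starts of the Runx genes are shown because each holds the sequence that RUNX proteins themselves bind. The windows are chr16:92826025-92826324 for *Runx1* (minus strand), chr17:44814578-44814877 for *Runx2* (minus strand) and chr4:135120395-135120694 for *Runx3* (plus strand), each printed 5′ to 3′ on the strand of its gene, with matches to TGTGGT or its reverse complement ACCACA in capitals.
Runx1 distal: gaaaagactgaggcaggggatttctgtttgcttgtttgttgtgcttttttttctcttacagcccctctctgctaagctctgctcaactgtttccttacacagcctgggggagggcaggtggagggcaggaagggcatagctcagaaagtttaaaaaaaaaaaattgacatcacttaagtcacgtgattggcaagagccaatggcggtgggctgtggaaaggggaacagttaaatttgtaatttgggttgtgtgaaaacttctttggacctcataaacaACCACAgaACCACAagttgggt
Runx2 distal: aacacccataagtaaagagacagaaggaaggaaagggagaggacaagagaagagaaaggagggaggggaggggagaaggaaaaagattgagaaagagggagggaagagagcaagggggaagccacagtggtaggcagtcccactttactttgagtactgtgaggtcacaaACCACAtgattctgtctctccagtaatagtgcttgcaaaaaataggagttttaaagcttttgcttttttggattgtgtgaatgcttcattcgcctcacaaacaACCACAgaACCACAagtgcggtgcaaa
Runx3 distal: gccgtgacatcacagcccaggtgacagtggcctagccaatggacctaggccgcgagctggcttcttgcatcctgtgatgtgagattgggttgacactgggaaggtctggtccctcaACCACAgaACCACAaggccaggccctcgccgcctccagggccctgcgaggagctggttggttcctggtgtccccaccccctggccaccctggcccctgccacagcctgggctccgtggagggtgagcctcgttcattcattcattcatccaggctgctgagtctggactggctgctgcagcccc
In each of these windows 2 matches in the same orientation lay with their first bases 8 apart. They began at +29 and +37 from the start site in *Runx1*, at +24 and +32 in *Runx2*, and at -134 and -126 in *Runx3*, and *Runx2* had a further match at -80. Such a pair was found in 7 of the 32851 windows of the same length (0.0213%), the 3 shown here among them. Windows with at least 1 match, those with a pair included, numbered 5506 (16.8%). The search used the spacing that the shown windows have, so the 0.0213% is not an independent background. The windows of the second *Runx1* start (chr16:92697280-92697579), the second *Runx3* start (chr4:135152295-135152594), *Cbfb* (chr8:105170424-105170723) and *Cbfa2t3* (chr8:122699060-122699359 and chr8:122678126-122678425) held no match. A match is a run of letters and not evidence of binding. Counting at the 3′ end of a transcript does not tell which start it came from, so the values below cover all transcripts of each gene.

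The matrix held 9562 cells and 252339042 unique molecular identifiers (UMIs, counted molecules) under 3 barcode suffixes, here called libraries 1, 2 and 3, of 3507, 3958 and 2097 cells. Depth differed between them, with medians of 23651, 13440.5 and 38312 UMIs per cell, and 13 barcode sequences stood under more than 1 suffix. The cells carried the 7 cluster numbers of the study, made from the same counts and ordered from the highest *Cdh5* to the highest *Runx1*, so the order of *Runx1* over clusters is no finding. Clusters 0 to 6 held 728, 799, 5396, 239, 518, 1572 and 310 cells, at median depths from 7875 UMIs in cluster 1 to 36065.5 in cluster 5. A level is the summed UMIs of a gene per 10,000 UMIs of a group of cells, followed by its exact 95% Poisson interval. A share is the percentage of cells with at least 1 UMI after every cell was thinned to 5000 UMIs, which left out 90 shallower cells (54 of them in cluster 1), followed by its exact Clopper–Pearson interval. These intervals cover counting error only.

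Marker lists were summed per cluster on the same scale. The 8 endothelial markers summed to between 35.0 and 50.1 in clusters 0, 1 and 2 and to between 3.95 and 7.10 in the others, although the sort took CD31+VE-Cad+ cells. Cluster 0 had the highest sum of arterial markers (28.6, against 5.59 in cluster 1 and 3.15 in cluster 2). Cluster 1 also carried macrophage markers, which summed to between 1.47 and 6.74 by library with none of the 7 at 0. Cluster 3 carried germ or pluripotent cell markers (44.3), and cluster 4 fibroblast (20.8) and pericyte or smooth muscle markers (15.2). Cluster 5 mixed macrophage (18.4) with neutrophil markers (16.4), and cluster 6 was led by megakaryocyte or platelet markers (200.5, from 158.0 to 230.8 by library). Mast cell markers reached at most 0.221, in cluster 5, where T or NK cell markers stood at 0.140 and B cell markers at 0.448. Erythroid markers summed to 2.87 in cluster 5 and to 4.65 in cluster 6. Cluster 4 also carried epithelial (3.68) and cardiomyocyte markers (3.68). The clusters are called by number below, and clusters 0, 1 and 2 are the endothelial clusters.

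*Runx1* (chr16:92601466-92826149, minus strand, GRCm38 with GENCODE M21) had 10801 UMIs and was found in 2032 cells. Its level was 1.67 (1.59 to 1.75) in cluster 6, with 1.58, 1.82 and 1.63 in libraries 1, 2 and 3. In cluster 5 the level was 1.30 (1.28 to 1.33), with 1.20, 1.38 and 1.38 by library. The ranges of the libraries did not overlap between these clusters, and both lay far above all others. Cluster 0 came next at 0.321 (0.290 to 0.354), with 0.333, 0.407 and 0.232 by library. Clusters 4 and 1 followed at 0.180 and 0.156, and their library ranges overlapped (0.178 to 0.182 and 0.113 to 0.199). The lowest levels were 0.0364 in cluster 3 and 0.0188 in cluster 2, again with overlapping library ranges. At equal depth a *Runx1* UMI was found in 55.7% of the cells of cluster 6 and 43.7% of those of cluster 5. The share ranged from 5.37% to 7.23% over clusters 0, 1 and 4, and was 2.93% in cluster 3 and 1.30% in cluster 2. Cluster 2, with the lowest share, had a median depth of 22493 UMIs against 14061 in cluster 0 and 7875 in cluster 1, and its 70 *Runx1*+ cells were shallower (10694.5) than its others (22644). The part of free RNA, which weighs more in shallow cells, was not tested.

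**Figure D1:**
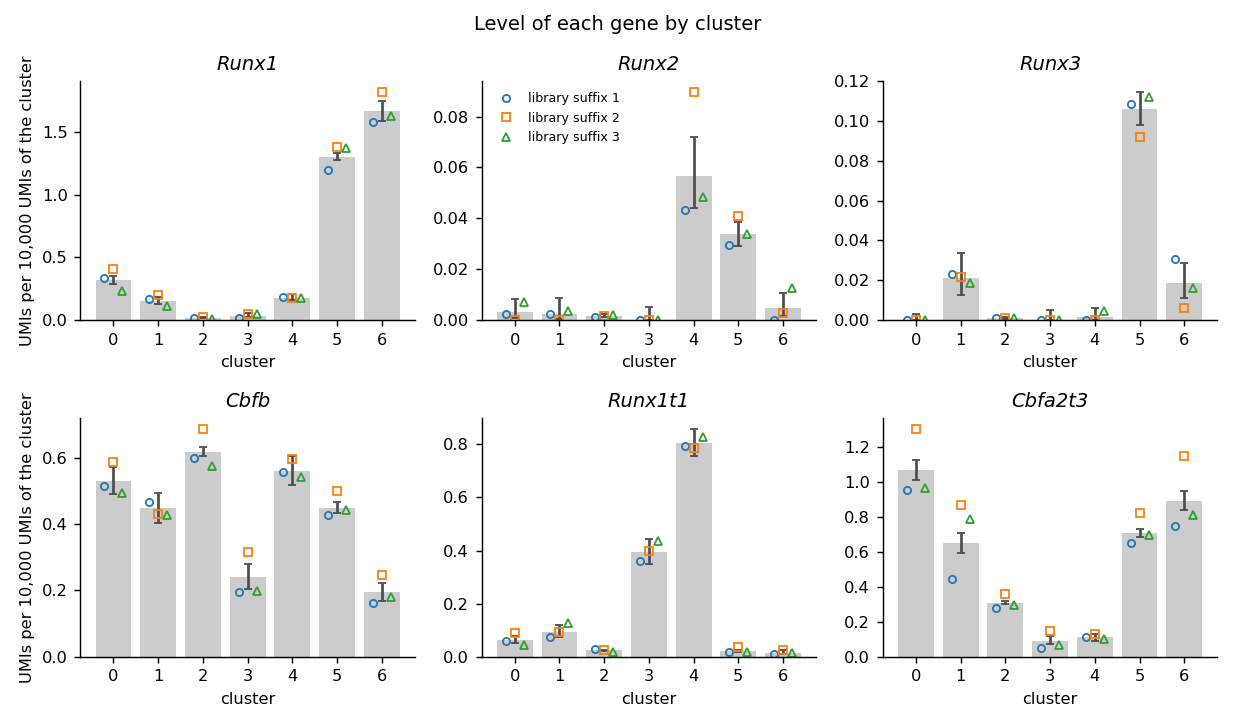
Level of each of the 6 genes in the 7 clusters, in UMIs per 10,000 UMIs of the cluster, 1 panel per gene with its own axis from 0. Grey bars are all cells with the exact 95% Poisson interval, and open marks are the 3 libraries (barcode suffixes). *Runx1* was highest in clusters 5 and 6, *Runx1t1* in cluster 4, and *Cbfb* was lowest in cluster 6 (0.194).

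*Runx2* (chr17:44495987-44814797, minus strand) was rare, with 307 UMIs in 203 cells. Its highest level was 0.0566 in cluster 4, from 20, 26 and 21 UMIs in libraries 1, 2 and 3. Cluster 5 followed at 0.0337, from 74, 59 and 73 UMIs. The libraries of these clusters did not overlap (0.0434 to 0.0895 against 0.0294 to 0.0408), and no other cluster exceeded 0.00464. *Runx3* (chr4:135120652-135177990, plus strand) had 699 UMIs in 293 cells. Its level was 0.106 in cluster 5, with 0.108, 0.0919 and 0.112 by library. In cluster 1 it was 0.0214 (9, 4 and 5 UMIs) and in cluster 6 it was 0.0186 (0.0306, 0.00591 and 0.0159 by library), and the ranges of these clusters overlapped. No *Runx3* UMI was found in clusters 0 and 3. At equal depth that was 0 of 722 cells of cluster 0, which allows a share of up to 0.416% (3 cells), and 0 of 239 cells of cluster 3, which allows up to 1.26% by the same limit. *Runx3* was found in 4.66% of cells of cluster 5 and *Runx2* in 1.47%, against 0.0186% and 0.112% in cluster 2.

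The make-up of the Runx UMIs followed these levels. *Runx1* supplied 99.0% of the 408 Runx UMIs of cluster 0, 98.6% of the 1820 of cluster 6 and 90.3% of the 8821 of cluster 5. *Runx3* added 7.34% in cluster 5 and 11.9% of the 151 in cluster 1. *Runx2* added 23.8% of the 282 in cluster 4, where *Runx1* made up the remaining bulk (75.5%). The paralogues were thus mixed most in cluster 4, the cluster with the fibroblast and pericyte markers. Counts at the 3′ end do not scale with transcript length, but capture can differ between genes, so such shares are compared between clusters rather than read as molar amounts.

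**Figure D2:**
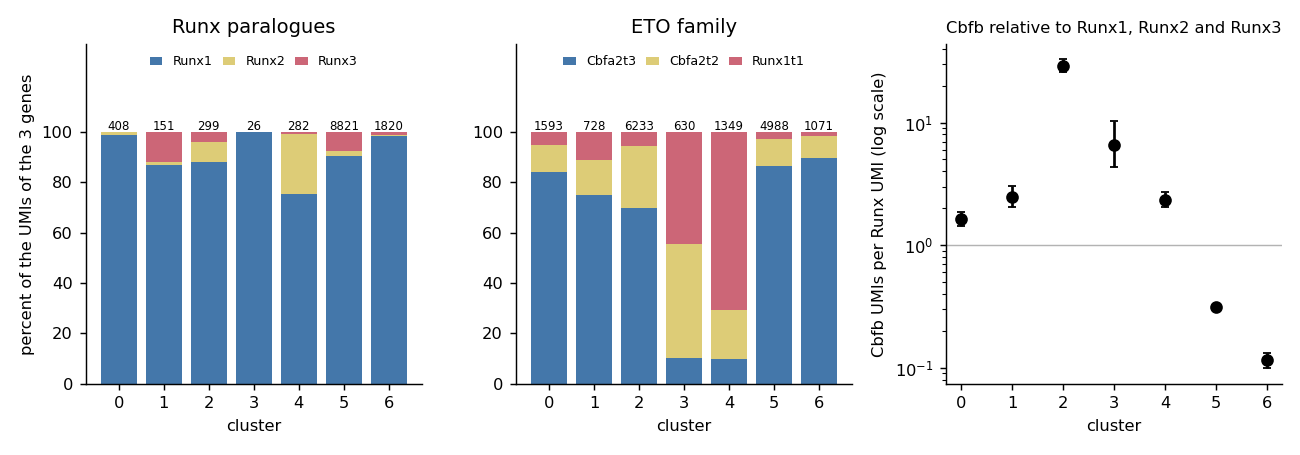
Stacked bars from 0 show the percentage of UMIs each gene supplied in clusters 0 to 6, for the 3 Runx genes and the 3 ETO family genes, with the summed UMIs above each bar, and the right panel shows *Cbfb* UMIs per Runx UMI on a log axis with exact 95% intervals. *Runx1* was the largest Runx share in every cluster, whereas the leading ETO gene was *Cbfa2t3* except in cluster 4, led by *Runx1t1* (70.6%), and cluster 3, where *Cbfa2t2* (45.1%) and *Runx1t1* (44.6%) were nearly equal.

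*Cbfb* (chr8:105170674-105217989, plus strand) was the most widespread of the 6 genes, with 13508 UMIs in 6164 cells. It was highest in cluster 2 (0.618), followed by cluster 4 (0.560), cluster 0 (0.529), cluster 5 (0.449) and cluster 1 (0.447). Neighbours in this order overlapped in their libraries, but within each library the order of clusters 2, 4, 0 and 5 was the same, and only clusters 5 and 1 changed places. Cluster 3 (0.240; 0.196, 0.317 and 0.197 by library) lay below cluster 1 without overlap, and cluster 6 was lowest at 0.194 (0.163, 0.245 and 0.181). The partner did not follow *Runx1*: for each Runx UMI, cluster 2 had 29.0 *Cbfb* UMIs (25.9 to 32.7) and cluster 0 had 1.63 (1.44 to 1.85). The same ratio was 0.311 for cluster 5 (0.298 to 0.325) and 0.115 for cluster 6 (0.0990 to 0.133). By library the ratio was 0.319, 0.330 and 0.290 in cluster 5 and 0.101, 0.134 and 0.110 in cluster 6, with no overlap. At equal depth 26.2% of cells of cluster 2 had a *Cbfb* UMI, against 21.4% in cluster 5 and 11.3% in cluster 6.

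*Cbfa2t3* (chr8:122625141-122699109, minus strand) had 11710 UMIs in 4475 cells. Its highest level was in the arterial cluster 0, at 1.06, with 0.955, 1.30 and 0.966 by library. Cluster 6 followed with 0.891, cluster 5 with 0.707 and cluster 1 with 0.648, each overlapping the next in its libraries. Cluster 2 followed at 0.310 (0.280 to 0.361), and clusters 4 and 3 were lowest at 0.111 and 0.0911. Within each library, however, cluster 0 was above cluster 6 and cluster 6 above cluster 5, whereas clusters 5 and 1 had no fixed order. Its share of cells at equal depth was similar in clusters 0 and 6 (37.7% and 36.6%) and in clusters 1 and 5 (26.6% and 26.0%).

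*Runx1t1* (chr4:13743436-13893649, plus strand) had nearly the opposite profile, with 1888 UMIs in 894 cells. Its level was 0.804 in cluster 4, with 0.795, 0.785 and 0.828 by library. Cluster 3 followed at 0.394, with 0.359, 0.399 and 0.437. No library of another cluster reached these values, as the levels of clusters 1 and 0 were 0.0951 and 0.0636 and those of clusters 2, 5 and 6 at most 0.0244. *Runx1t1* supplied 70.6% of the ETO family UMIs in cluster 4 and *Cbfa2t3* 9.71%. In cluster 6 these shares were 1.59% and 89.6%. *Cbfa2t2*, the remaining family member, ranged only from 0.0873 to 0.398 and was highest in cluster 3. Library 2, the shallowest, gave the highest level of *Cbfa2t3* in all 7 clusters and of *Runx1* and *Cbfb* in 6 of 7 each. The part of depth in these differences between libraries was not tested.

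Groups of clusters were then compared as log2 ratios of levels, with exact 95% counting intervals. A gene was counted as higher or lower when it differed at least 2-fold and in the same direction in all 3 libraries, among the 12503 genes with at least 0.01 UMIs per 10,000 over all cells, which all 6 genes passed. This count is a description, as the clusters were drawn from the same counts. *Runx2* and *Runx3* passed the minimum largely through cluster 5, which held 206 of the 307 *Runx2* UMIs and 647 of the 699 *Runx3* UMIs. A count of either as higher in that cluster is thus not independent of the minimum. The endothelial clusters were summed, so cluster 2 dominates them, with 140516887 of their 161515861 UMIs. In clusters 5 and 6 against the endothelial clusters, *Runx1*, *Runx2* and *Runx3* were higher and none of the 6 genes was lower, where 11.4% of all genes were higher and 20.0% lower. The difference was 4.78 for *Runx1* (4.67 to 4.89), and it was 4.56, 4.51 and 5.42 in libraries 1, 2 and 3. For *Runx3* it was 5.64 (5.12 to 6.22) and for *Runx2* 4.03 (3.47 to 4.65). *Cbfa2t3* stood 0.93 higher (0.87 to 0.98), just under the 2-fold limit, although cluster 0 alone (1.06) was above both clusters, and *Cbfb* at -0.55 (-0.61 to -0.49). *Runx1t1* had a ratio of -0.56, but its libraries disagreed in sign (-1.14, 0.13 and -0.65).

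**Figure D3:**
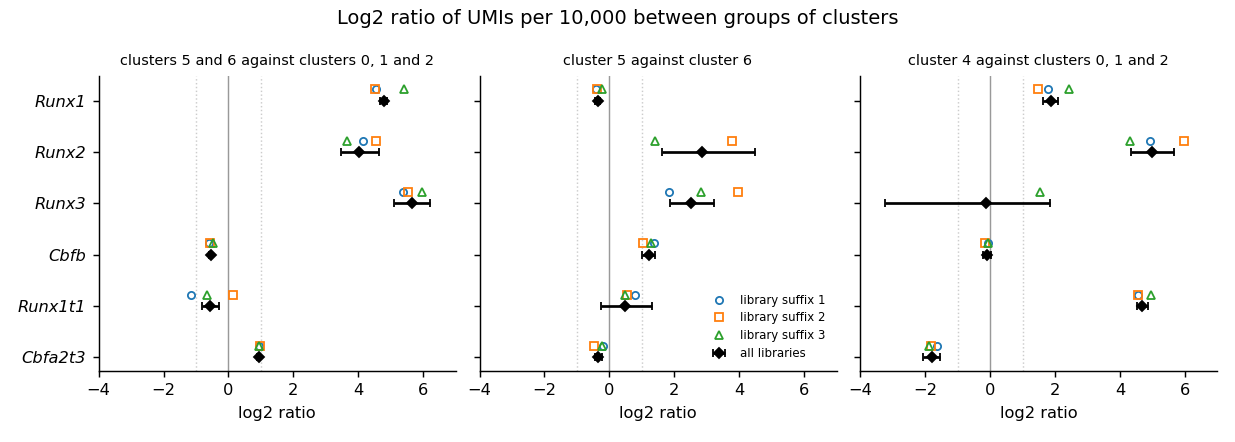
Log2 ratio of the level of each of the 6 genes in 3 comparisons of clusters, 1 panel per comparison. Filled diamonds are all cells with exact 95% counting intervals, open marks are the 3 libraries (a library with no UMI in 1 of the groups has none), and dotted lines mark a 2-fold difference. *Runx1* stood 4.78 higher in clusters 5 and 6 than in the endothelial clusters, and *Runx1t1* 4.69 higher in cluster 4, whereas *Cbfb* was within 2-fold except in cluster 5 against cluster 6 (1.21).

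Cluster 5, with its macrophage and neutrophil markers, differed from the megakaryocyte-marked cluster 6 in the minor Runx genes and in the partner. *Runx2* was 2.86 higher on the log2 scale in cluster 5 (1.61 to 4.50, from 206 and 5 UMIs), *Runx3* 2.51 (1.87 to 3.23) and *Cbfb* 1.21 (1.01 to 1.42), so 3 of the 6 genes counted as higher and none as lower, where 11.9% and 8.57% of all genes did. Leaving out a library moved the *Runx2* ratio to as low as 2.26 (without library 1) and as high as 4.68 (without library 3), and the *Runx3* ratio to 3.28 (without library 1). *Cbfb* was more than 2-fold higher in every library (1.39, 1.03 and 1.28). *Runx1* was slightly lower in cluster 5, at -0.35 (-0.43 to -0.28), as was *Cbfa2t3* at -0.33 (-0.44 to -0.23).

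In cluster 4 against the endothelial clusters, *Runx2*, *Runx1t1* and *Runx1* were higher, and *Cbfa2t3* was lower, where 14.0% of all genes were higher and 9.02% lower. The log2 ratio was 4.98 for *Runx2* (4.33 to 5.66), 4.69 for *Runx1t1* (4.53 to 4.85), 1.86 for *Runx1* (1.64 to 2.08) and -1.80 for *Cbfa2t3* (-2.06 to -1.55). The *Runx1* level of cluster 4 (0.180) was above that of cluster 2 only, and lay below cluster 0 (0.321) and overlapped cluster 1 (0.156). *Cbfb* stood at -0.10, and *Runx3* had only 2 UMIs in the cluster. Within cluster 4 at equal depth, *Runx1* was found in 11.3% (7.35 to 16.3) of the 213 cells with *Col1a1*, the main collagen of bone and connective tissue, and in 4.35% of the 299 without it. *Runx1t1* was in 35.7% and 21.4% of these cells. Another random thinning gave 10.0% and 3.41% for *Runx1* and 40.2% and 21.2% for *Runx1t1*, whereas the order of *Runx2* turned with the thinning (0.939% and 2.68%, then 4.11% and 1.71%).

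Cluster 3 was set against the endothelial clusters in the same way, and *Runx1t1* was higher by 3.66 (3.45 to 3.87). *Cbfa2t3* was lower, at -2.08 (-2.46 to -1.73), and so was *Cbfb*, at -1.33 (-1.56 to -1.11). *Runx1* had a ratio of -0.44 with an interval that held 0 (-1.06 to 0.12). *Runx2* and *Runx3* had no UMI in cluster 3 and also counted as lower, but 29 and 30 UMIs in the endothelial clusters are too few to give a fold, and of all genes 11.3% were higher and 27.4% lower.

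Within the endothelial clusters, *Runx1*, *Cbfa2t3* and *Runx1t1* were higher in the arterial cluster 0 than in cluster 2, where 11.2% of all genes were higher and 4.45% lower. The log2 ratio was 4.09 for *Runx1* (3.87 to 4.32), 1.78 for *Cbfa2t3* (1.69 to 1.87) and 1.38 for *Runx1t1*. *Runx3* counted as lower from 0 and 12 UMIs, which gives no fold. At equal depth the *Runx1* ratio was 3.12, and the mean over cells gave 3.15. Macrophage markers summed to 0.0440 to 0.183 by library in cluster 0 and to 0.0730 to 0.189 in cluster 2. A UMI of *Ptprc*, the gene of CD45, was in 0 of the 46 *Runx1*+ cells of cluster 0 (0 to 7.71%) and in 5 of the 676 others. For *Ptprc* or *Tyrobp*, an immune receptor adaptor, it was 1 of the 46, among 16 such cells of the cluster.

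Few cells of cluster 0 carried *Runx1*, and some carried much of it. At 5000 UMIs, 22 of 722 cells had 1 *Runx1* UMI, 10 had 2 and 14 had 3 or more (1.94%). In cluster 2, 66 of 5377 cells had 1, 2 had 2 and 2 had 3 or more. Cluster 1 had 29 cells with 1 UMI, 11 with 2 and none with more, among 745. Cells with 3 or more were thus seen in cluster 0 and, among the endothelial clusters, hardly elsewhere.

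**Figure D4:**
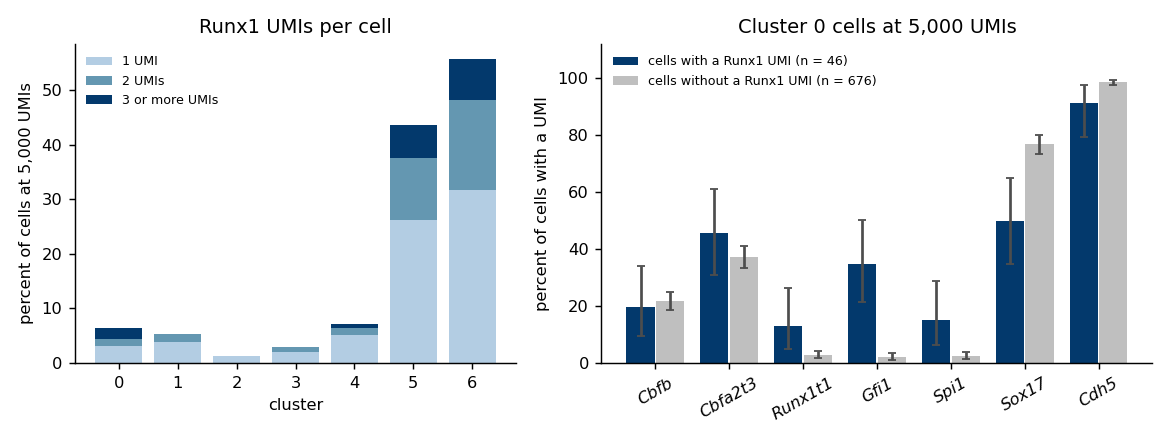
Percentage of cells with 1, 2 and 3 or more *Runx1* UMIs after thinning to 5000 UMIs, by cluster, as stacked bars from 0 (left), and percentage of the *Runx1*+ and *Runx1*- cells of cluster 0 with a UMI of 7 other genes, with exact 95% Clopper–Pearson intervals (right). Clusters 5 and 6 reach 43.7% and 55.7% of cells, and cluster 0 reaches 6.37%, of which 1.94% are cells with 3 or more, and the intervals for *Gfi1* do not overlap (34.8% and 2.07%).

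The 46 *Runx1*+ and 676 *Runx1*- cells of cluster 0 were compared at equal depth. *Gfi1*, a repressor that RUNX1 activates in haemogenic endothelium, was found in 34.8% (21.4 to 50.2) of the *Runx1*+ cells and in 2.07% of the others. By library these were 9 of 17, 5 of 21 and 2 of 8 *Runx1*+ cells. *Spi1*, the myeloid factor PU.1, was found in 15.2% and 2.51%. Its libraries differed, with 0 of 17, 5 of 21 and 2 of 8 *Runx1*+ cells, so library 1 did not show the difference. Another random thinning gave 53 *Runx1*+ cells, with *Gfi1* in 43.4% of them and 1.94% of the others and *Spi1* in 22.6% and 2.69%. *Spi1* was then in 7 of 25, 5 of 18 and 0 of 10 *Runx1*+ cells of libraries 1, 2 and 3. Endothelial genes stayed frequent in the *Runx1*+ cells, with *Cdh5* (VE-cadherin) in 91.3% and 98.8% and the arterial factor *Sox17* in 50.0% and 76.8%. Among the cofactors, *Cbfa2t3* was found in 45.7% (30.9 to 61.0) and 37.1% (33.5 to 40.9), *Runx1t1* in 13.0% (4.94 to 26.3) and 2.81%, and *Cbfb* in 19.6% and 21.7%. From the arterial side, *Runx1* was in 4.10% of the 586 cells with *Gja5* and in 16.2% of the 136 without it, and it was the less frequent in *Gja5*+ cells in each library (3.57% against 18.8%, 5.22% against 16.7% and 3.03% against 11.8%). The *Runx1*+ cells were deeper before thinning, with a median of 19599.5 UMIs against 13895.

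In cluster 1 against cluster 2, *Runx1*, *Runx3*, *Runx1t1* and *Cbfa2t3* were higher and none was lower, where 19.9% of all genes were higher and 12.8% lower. The log2 ratio was 3.05 for *Runx1* (2.74 to 3.36), 4.65 for *Runx3* (3.51 to 5.83, from 18 and 12 UMIs), 1.96 for *Runx1t1* and 1.06 for *Cbfa2t3*. Cells with leukocyte genes carried part of the first 2 differences. *Runx1* was found in 25.0% of the 80 cells with *Ptprc* or *Tyrobp*, an immune receptor adaptor, and in 3.01% of the 665 without. *Runx3* was found in 7.50% and 0.150%. Without these 80 cells the *Runx1* level of cluster 1 was 0.0838 (0.0639 to 0.108). Its log2 ratio to cluster 2, from which the 152 such cells were also left out (0.0178), was 2.24. *Runx3* was then left with 3 UMIs, whereas *Cbfa2t3* stood at 0.739. With no cell left out but all thinned to equal depth, the ratio was 2.26 for *Runx1* and 5.85 for *Runx3*, the latter resting on 1 UMI in cluster 2. *Cdh5* was found in 62.5% (45.8 to 77.3) of the 40 *Runx1*+ cells of cluster 1 and in 92.8% (90.6 to 94.6) of the others. *Cbfa2t3* was in 12.5% (4.19 to 26.8) and 27.4% (24.1 to 30.8), with overlapping intervals. In cluster 0 the same removal left *Runx1* at 0.321.

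Cluster 5 was split by *Mpo*, a neutrophil granule enzyme of progenitors, and *C1qb*, a complement gene of macrophages, at 5000 UMIs. There were 341 cells with *Mpo* alone, 685 with *C1qb* alone, 47 with both and 495 with neither, at median depths of 41905, 34449, 35827 and 33857 UMIs. *Runx1* had levels of 1.72 and 1.09 in the *Mpo* and *C1qb* cells, a log2 ratio of 0.65 (0.57 to 0.73), with 0.62, 0.62 and 0.73 by library. *Cbfa2t3* differed more, at 0.973 and 0.313, a ratio of 1.64 (1.51 to 1.76) or 3.11-fold, with 1.70, 1.59 and 1.66 by library. *Runx2* was at 0.0560 and 0.0155 (1.85, 1.29 to 2.44) and *Runx3* at 0.132 and 0.0552 (1.26, 0.94 to 1.58). The *Runx3* ratio varied between libraries, at 2.05, 1.12 and 0.51. *Cbfb* ran the other way, at 0.399 and 0.505 (-0.34, -0.48 to -0.20). Thus all 3 Runx genes and *Cbfa2t3* were higher in the *Mpo* cells, and the shared partner was not.

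**Figure D5:**
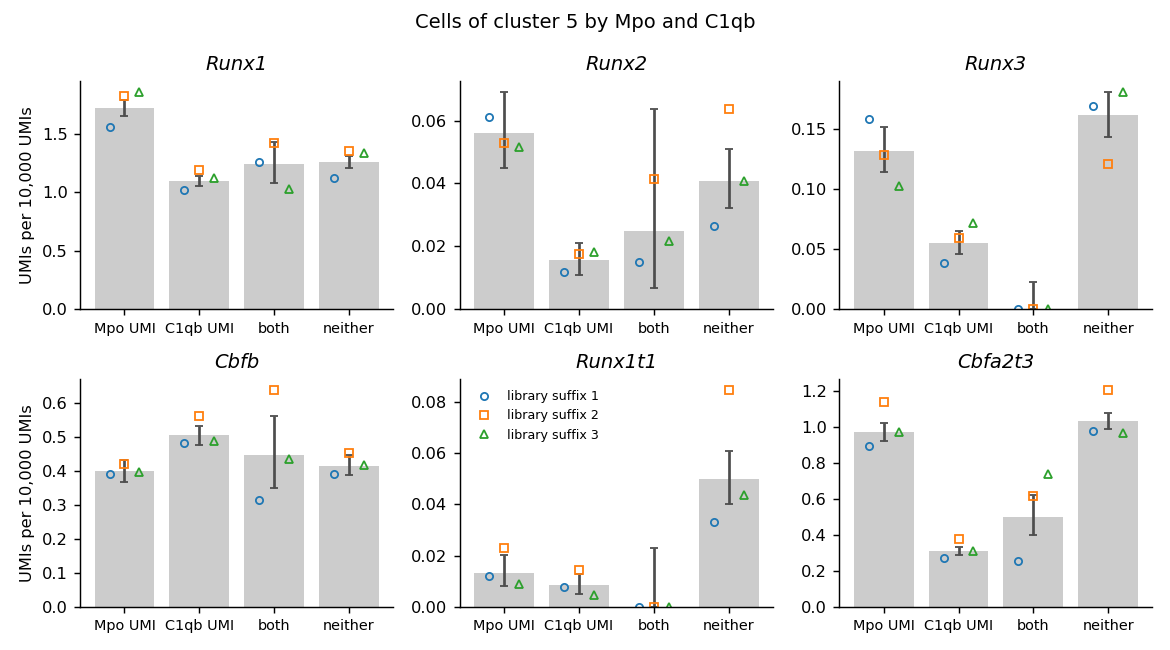
Level of each of the 6 genes, in UMIs per 10,000 UMIs, in the 4 subsets of cluster 5 defined by *Mpo* and *C1qb* UMIs, as bars from 0 with exact 95% Poisson intervals and the 3 libraries as open marks. *Cbfa2t3* was near 1 in the *Mpo* cells and in those with neither gene and 0.313 in the *C1qb* cells.

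The cells with neither marker had the highest *Cbfa2t3* level (1.03) and the highest *Runx3* level (0.162) of the subsets, with *Runx1* at 1.25, and they held most of the *Runx1t1* of the cluster (0.0498, against 0.0130 and 0.00833 in the *Mpo* and *C1qb* cells). They also carried the erythroid and progenitor genes *Klf1* (0.845), *Gata1* (0.467) and *Kit* (0.673). The *Mpo* cells carried these too, at 0.160, 0.269 and 0.504. *Cd34* (2.60 against 2.40) and the mast cell marker *Cpa3* (0.391 against 0.146) were higher in the *Mpo* cells than in those with neither marker. *Gfi1* was at 0.217 in the cells with neither marker, 0.0787 in the *Mpo* cells and 0.00119 in the *C1qb* cells. The 47 cells with both markers had no *Runx3* UMI, which allows a level of up to 0.0186. *Runx3* was found in 5.75% of the 1114 cells of cluster 5 with *Ptprc* or *Tyrobp* and in 1.98% of the 454 without, or in 6.16% and 3.47% with the other random thinning. *Cbfb* was in 21.5% of the *Runx1*+ and 21.4% of the *Runx1*- cells of the cluster.

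Genes of the wider RUNX pathway were counted in the same comparisons, from lists of genes that RUNX proteins bind, work with or are known to regulate. These lists overlap the markers by which the clusters differ, so their counts describe the clusters and are not independent of them. In clusters 5 and 6 against the endothelial clusters, 9 of 10 myeloid targets of RUNX1 were higher, beside 11.4% of all genes. The median log2 ratio of the targets was 5.40, against -0.08 over all genes. Among those higher were the neutrophil elastase gene *Elane* (7.99), *Mpo* (7.12) and the macrophage growth factor receptor *Csf1r* (6.42). All 10 megakaryocyte targets were higher, with a median of 5.97, among them the platelet genes *Gp9* (7.04) and *Pf4* (6.73). Some of these targets, such as *Elane* (at most 0.00701 outside cluster 5), passed the minimum only through the group in which they were higher. Between the 2 clusters, 9 of the 10 myeloid targets were higher in cluster 5, with a median of 5.55, and all 10 megakaryocyte targets were lower, with a median of -5.35, where 11.9% and 8.57% of all genes were higher and lower. Of the myeloid targets, *Gfi1* and *Il3ra* had higher levels in cluster 0 (0.158 and 0.271) than in cluster 5 (0.0874 and 0.154).

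Fewer of the partners of RUNX proteins differed. Of 13 co-repressors 1 was higher (*Tle5*, 1.26) and 1 lower (*Tle1*, -1.63) in clusters 5 and 6 than in the endothelial clusters, and of 8 co-activators and kinases 3 were higher (*Cdk6* 2.14, *Pim1* 1.57, and *Hipk2* just at the 2-fold limit), beside 11.4% higher and 20.0% lower over all genes. The *Tle5* levels of clusters 5 and 6 (1.91 and 2.28) were above that of cluster 2 (0.552) but below those of clusters 0 and 1 (2.36 and 3.03), and *Pim1* was as high in cluster 1 (0.861) as in cluster 5 (0.871). *Cdk6* was high in cluster 5 (0.802) but not in cluster 6 (0.245, against 0.253 in cluster 1). *Hipk2* was high in cluster 6 (1.92) but not in cluster 5 (0.419, against 0.547 in cluster 0). Of 10 listed genes, of the TAL1 complex with which ETO2 works and of ETS factors, *Gata1* was higher (6.97) and the ETS factor *Erg* lower (-2.27). *Gata1* stood at 0.217 in cluster 5, 1.51 in cluster 6 and at most 0.0168 elsewhere. It passed the minimum only through these 2 clusters, so its count as higher is not independent of the minimum. In cluster 4, which had least *Cbfa2t3* beside cluster 3, 6 of these 10 were lower than in the endothelial clusters, among them *Lmo2* (-3.69), *Erg* (-3.13), *Lyl1* (-3.05) and *Tal1* (-2.98). *Tcf12*, named after its value was seen, was higher (1.24). There 3 of the 13 co-repressors were higher, among them *Tle2* (3.06) and *Tle5* (1.74, though not above cluster 1), beside 14.0% higher and 9.02% lower over all genes.

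Targets of RUNX2 and RUNX3 were mostly too rare to measure. Of 12 skeletal targets 5 passed the minimum level, and 4 of these were higher in cluster 4 than in the endothelial clusters, the collagen genes *Col1a1* (8.38) and *Col1a2* (7.15), osteopontin *Spp1* (3.98) and alkaline phosphatase *Alpl* (1.26), where 14.0% of all genes were higher. The levels of *Spp1* and *Alpl* were not above those of cluster 1 (2.78 against 2.99 and 0.0524 against 0.150). *Alpl* was by far the highest in cluster 3 (1.69), where *Runx2* had no UMI. In cluster 1, where *Runx2* itself had 2 UMIs, 3 of the 5 were higher than in cluster 2, beside 19.9% of all genes. They were *Spp1* (7.18), *Mmp13* (7.10) and *Alpl* (3.37). *Mmp13* stood at 0.558 in cluster 1 and at most 0.00422 elsewhere, so it passed the minimum only through cluster 1. Of 8 lymphoid targets of RUNX3, 2 passed the minimum. Both were higher in clusters 5 and 6 than in the endothelial clusters, beside 11.4% of all genes. *Gzmb* (8.38) passed only through cluster 5 (0.219, and at most 0.00119 elsewhere), so its count as higher is not independent of the minimum. *Zbtb7b* (2.99) had its highest level in cluster 1 (0.103, against 0.0915 in cluster 5). In cluster 0 against cluster 2, 3 of the 10 myeloid targets were higher, *Gfi1* (6.12, at levels of 0.158 and 0.00228), *Spi1* (2.97) and *Il3ra* (1.19). *Csf3r* was lower (-1.12), beside 11.2% higher and 4.45% lower over all genes.

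Finally, the genes with the profile nearest to each of the 6 were found by Pearson's correlation of log2 levels over 21 points, the 7 clusters in each of the 3 libraries. The points share libraries and depth, so the values are descriptions. *Runx1* was nearest to *Hacd4* (0.95), *Celf2* (0.95) and *Dok2* (0.94), and *Runx3* to *Myo1g* (0.97), *Ly86* (0.97) and *Lst1* (0.97). *Runx2* was nearest to *Plppr3* (0.96), *Cbfb* to *Marcks* (0.97) and *Dpysl2* (0.97), and *Runx1t1* to *Ldhb* (0.96). *Cbfa2t3* was nearest to *Ehd4* (0.95), *Nfatc1* (0.94) and *Etv6* (0.94). Among the 6 genes, the coefficient was 0.65 for *Runx1* with *Cbfa2t3*, 0.64 for *Runx1* with *Runx3*, -0.29 for *Runx1* with *Cbfb* and -0.78 for *Runx1t1* with *Cbfa2t3*.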

How the data were processed

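The authors deposited whole-number UMI counts per gene and cell in 1 table, a table of natural log-normalised values of fewer genes, and a cell table with cluster numbers. Per the labels, Cell Ranger 3.1.0 was used with mm10, and Seurat 3.1.5 is named without its role. The study's methods state that libraries were aggregated with batch-effect removal; the counts used here were whole numbers. Aggregation or correction could alter differences between libraries. The annotation used in counting was not given in the sources used here. Of 27998 gene identifiers, 27722 were named through GENCODE M21, giving 27985 genes. The deposited natural log values of 721 genes were recomputed from the counts, with a largest difference of 5.3e-15, and were not used further.

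Counts were summed over cells by cluster and by barcode suffix. The suffixes could not be tied to the 3 pools, and the clusters were defined by the authors from the same cells, so no p-value was computed. Intervals were exact Poisson (levels), Clopper–Pearson (shares) and conditional binomial (ratios), at 95%. UMIs are molecules, and intervals and floors cover counting error only. The floor for a count of 0 was 3 UMIs or cells. Cells were thinned to 5000 UMIs with a fixed random seed. No cells were removed for doublets, and the study's filters were kept. Profiles were correlated on log2(level + 0.05), among genes with at least 0.1 UMIs per 10,000 in at least 1 cluster. Intervals and calls were checked on simulated Poisson counts with the same rates in every library. These held no variation between cells or libraries, so the check covers counting error only. RUNX matches were searched as TGTGGT on both strands. The 6 genes and the gene lists were chosen with earlier results of these data known, and genes were named by the largest absolute ratio within their list (at most 4) or the highest correlation (at most 5). Analyses used Python 3.11.15 with numpy 2.4.6, pandas 2.3.3, scipy 1.17.1 and matplotlib 3.10.9. Alternatives were leaving out each library, thinning, the mean over cells, leaving out the top 2% of cells by UMIs, other minimum levels and another fold. Some items named in the labels or lists are not reported here.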

Additional observations from a re-analysis of the deposited data

How the results depend on the processing

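No paired analysis was possible because no result comes from a test and the libraries could not be tied to samples, so ratios within each library were given as values. The libraries differ in depth, and *Runx2* and *Runx3* rest on few UMIs outside cluster 5, which limits their ratios most. Of 206 alternative values of the log2 ratios of the 6 genes, 163 stayed within the counting interval, 43 left it and 5 changed sign, none of a ratio counted as higher or lower. Those that changed sign were *Runx3* in cluster 4 against the endothelial clusters without library 1 (0.78) and without library 2 (0.19), *Runx2* in cluster 0 against cluster 2 without library 3 (-0.24), and *Runx1* in cluster 3 against the endothelial clusters without library 1 (0.06) and thinned (0.24). In cluster 5 against cluster 6, *Runx2* reached 4.68 without library 3 and 5.06 without the top 2% of cells, *Runx3* reached 3.33 thinned and 3.28 without library 1, and *Runx1t1* 2.56 thinned. *Runx3* in cluster 1 against cluster 2 was 5.85 thinned. The thinned values of *Runx3* and *Runx1t1* here rested on few UMIs, with 2 of *Runx3* and 1 of *Runx1t1* in cluster 6, and 1 of *Runx3* in cluster 2.

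Counts over all genes moved with the limits. At 1.5-fold, 2199 genes were higher in clusters 5 and 6 than in the endothelial clusters, 2356 were higher and 1788 lower in cluster 5 against cluster 6, 2919 higher and 1705 lower in cluster 4, 2634 higher and 1342 lower in cluster 0 against cluster 2, 2690 lower in cluster 1 against cluster 2 and 2423 higher in cluster 3. With a minimum level of 0.1 the higher and lower counts, in the same order, were 576 and 1319, 645 and 527, 415 and 722, 552 and 248, 1132 and 948, and 565 and 2137. With no minimum beyond 1 UMI they were 2504 and 4152 in clusters 5 and 6, 2544 higher in cluster 5 against cluster 6, 3663 and 2079 in cluster 4, 1783 lower in cluster 0, 3034 lower in cluster 1, and 2519 and 5338 in cluster 3. Of the 6 genes, between 1 and 2 were lower in cluster 4 when a library was left out, and 2 were when thinned. In cluster 0 against cluster 2 thinning left 0 lower.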
